A study of Mus musculus with 3 samples.

Results

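Translation initiation factors (eIF genes) and elongation factors (eEF genes), with the enzymes and binding proteins that carry the same symbols, were followed in stimulated mouse macrophages. The members were the protein-coding genes whose symbol begins with Eif1 to Eif6 or Eef1 to Eef2, leaving out the eIF2 kinases (Eif2ak genes), and 64 genes met this rule, of 55536 annotated genes and 22028 protein-coding genes. The rule used symbols and no measured value. The samples form 1 group of 3 libraries of cytosolic total RNA, depleted of ribosomal RNA, from C57BL/6J bone marrow-derived macrophages given 100 ng/ml lipid A for 90 min. Lipid A is the lipid anchor of bacterial lipopolysaccharide and a ligand of Toll-like receptor 4. The labels number the libraries as biological replicates 1 to 3, give all of them the same donor identifier, and record neither sex nor age. Neither unstimulated cells nor the nuclear fraction was used here, so induction of a factor and its export from the nucleus were not measured.

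Initiation factors load the small ribosomal subunit with initiator tRNA, bring it to the capped end of an mRNA and choose the start codon, after which elongation factors deliver aminoacyl-tRNAs and move the ribosome along. The rate of initiation is known to be set largely by the cap-binding complex eIF4F, which the 4E-binding proteins restrain under control of mTOR, and by eIF2, whose recycling by eIF2B is blocked when stress kinases phosphorylate it. In macrophages, activation by bacterial ligands is known to act on eIF4E through mTOR and the MNK kinases while cytokine mRNAs are being made. Only transcript levels were measured here, not proteins, their phosphorylation or translation.

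Levels are given as TPM (a length-corrected share of all transcripts in a library), so members can be compared within a library, and values after ± are SDs over the 3 libraries. The authors deposited a second quantification, made straight from the reads, beside a first, made from transcriptome alignments, and values are of the first unless the second is named. Expected counts summed to 33821479 in replicate 1, 47843161 in replicate 2 and 59390843 in replicate 3. Protein-coding genes held 26.70, 21.95 and 22.35% of all TPM in replicates 1, 2 and 3, and 51 of the 64 members had their highest TPM in replicate 1; the part of that share in the result was not tested. All 10 macrophage markers were called above the reference described below, with a summed level of 9091 to 10981 TPM per library. The 32 markers of neutrophils, lymphocytes, dendritic cells, erythroid cells, fibroblasts and mast cells summed to 27.3 to 48.2 TPM, with 8 of them at 0 and 1 (S100a9) above the reference. In a bulk sample, fewer cells of a type and less RNA per cell cannot be told apart.

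The machinery of translation was abundant in these cells, but its parts differed in level by more than 3 orders of magnitude. The members together held 1.43, 1.39 and 1.34% of protein-coding TPM in replicates 1, 2 and 3. Eef1a1, which delivers aminoacyl-tRNAs to the ribosome, alone made up 44.4, 44.3 and 42.7% of the members' TPM, and the 5 most abundant members in each library made up 66.0 to 67.4%. Each member was set against a reference, the median of the 8752 protein-coding genes that averaged 1 TPM or more. The reference stood at 7.38 TPM in replicate 1, 6.07 TPM in replicate 2 and 6.21 TPM in replicate 3. Of 60 members that averaged 0.1 TPM or more, 35 exceeded it by 1 or more on the log2 scale (limma one-sample test, Benjamini-Hochberg adjusted p under 0.05), where 20.5% of all genes tested and 23.4% of protein-coding genes tested did so. A further 11 members lay below it, where 50.6% of all genes and 43.7% of protein-coding genes did so, and 14 were called neither way. All 60 members averaged 1 TPM or more. Of the 9277 genes that did so, 29.4% were above and 29% below, with the same 35 and 11 members called. The median log2 difference was 1.34 over the 60 members, against -1.06 over all 13344 genes tested and -0.63 over the 11196 protein-coding genes tested. With the reference taken from genes of at least 5 TPM, 18 members were above and 20 below. Of all genes tested, 10.6% were above and 66.1% below at that setting.

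**Figure D1:**
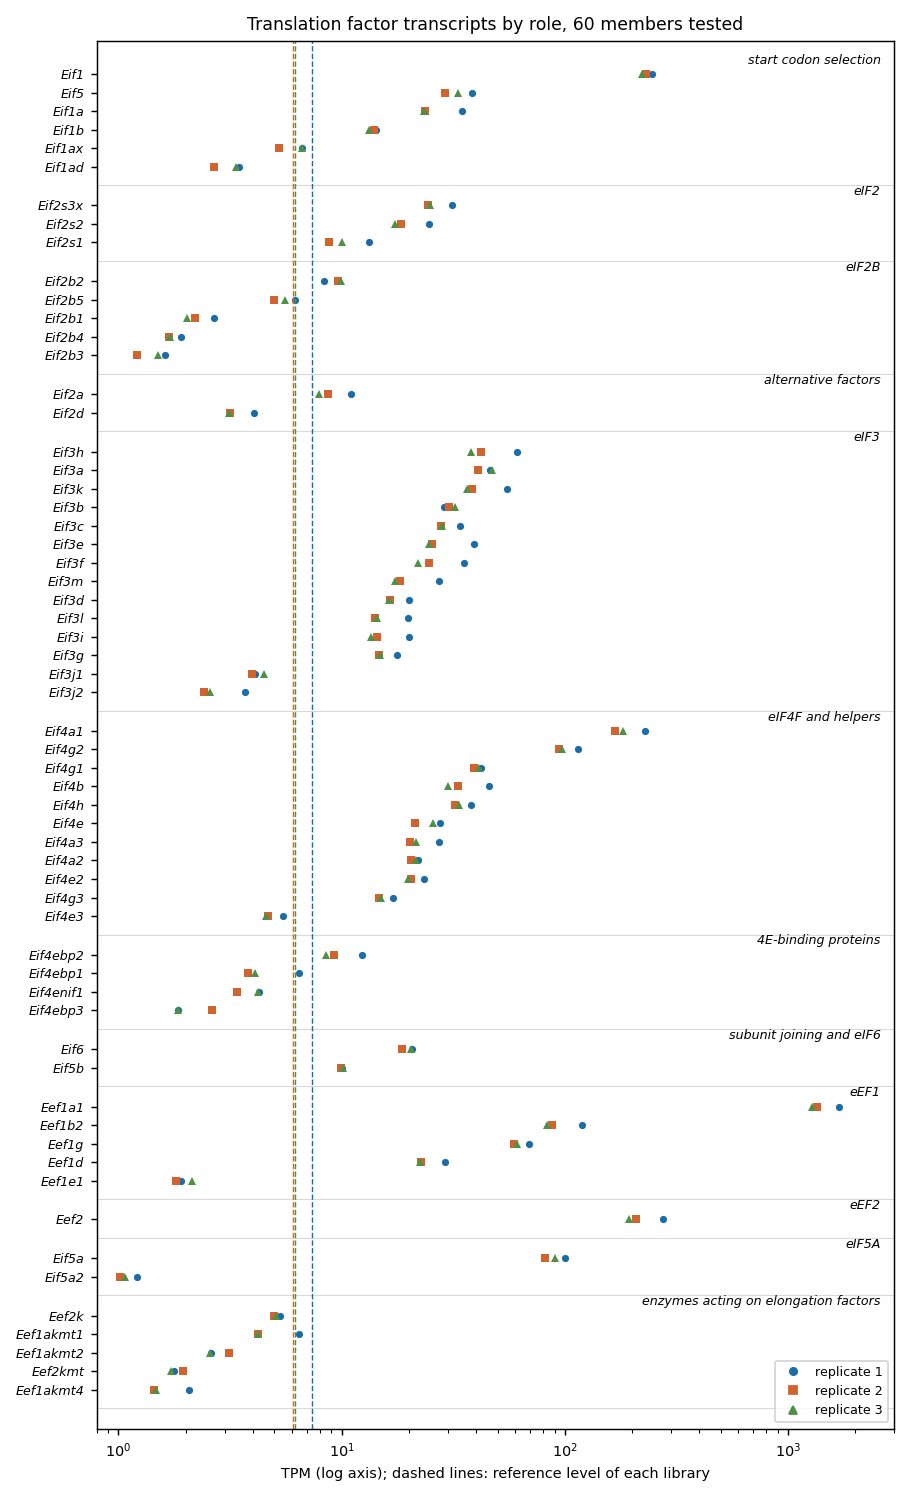
TPM (log axis) of the 60 members that averaged 0.1 TPM or more, grouped by role; each member has 1 point per library and dashed lines mark the reference of each library. Eef1a1 stands at 1276 to 1690.5 TPM, the eIF2B subunits and the methyltransferases lie near or left of the reference, and most eIF3 and eIF4F members lie right of it.

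Counts by role stand beside the shares of protein-coding genes tested, 23.4% above the reference and 43.7% below. Of all genes that averaged 1 TPM or more, 29.4% were above and 29% below. Among the factors that select the start codon, 4 of 6 were above the reference and 1 was below. In the second quantification Eif1b, at a log2 difference of 0.50, was not called. Eif1, which keeps the scanning ribosome from settling on a wrong codon, had 245, 232 and 221 TPM. Its log2 difference from the reference was 5.13 ± 0.10 (SD, n = 3; limma adjusted p = 3.2e-05). Its close relative Eif1b had 14.3, 14.0 and 13.2 TPM, so the libraries of Eif1 and Eif1b did not overlap and every library placed Eif1 far above. Eif1 over Eif1b was 4.06 ± 0.02 on the log2 scale, or 16.7-fold, and was 3.29 on protein-coding transcripts only. The coding sequences of this pair were 81.3% identical, with no shared stretch longer than 25 bases. Eif1a, a scanning factor of the same step, had 34.5, 23.6 and 23.3 TPM, and Eif1ax, its X-linked relative, had 6.62, 5.26 and 6.67 TPM. Eif1a over Eif1ax was 2.10 ± 0.29 on the log2 scale, in the same direction in 3 of 3 libraries, and was 1.68 in the second quantification and 2.83 on protein-coding transcripts only. Eif5, which triggers GTP hydrolysis by eIF2 at the start codon, averaged 33.6 ± 4.69 TPM (SD, n = 3). Eif1ad, named for a domain like that of eIF1A and overlapped by Banf1, was the lowest of this group, with 3.46, 2.69 and 3.35 TPM. Its log2 difference of -1.03 ± 0.14 was close to the limit of the call, and without replicate 2 it was -0.95 and not called.

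The detected subunits of eIF2, which carries initiator tRNA, had higher levels than those of eIF2B, the exchange factor that reloads eIF2 with GTP, except that Eif2s1 was below Eif2b2 in replicate 2. Eif2s3x, the X-linked gamma subunit, had 31.2, 24.5 and 24.8 TPM, and Eif2s2, the beta subunit, averaged 20.1 ± 3.96 TPM; both were above the reference. Eif2s1, the alpha subunit on which the stress kinases act, had 13.2, 8.77 and 10.1 TPM and was called neither way (log2 difference 0.68 ± 0.16). The eIF2 alpha subunit was thus the lowest of the detected subunits in every library. Eif2s3y, the Y-linked copy of the gamma subunit, had 1, 0 and 6 estimated counts in the second quantification and was at 0 counts in all 3 libraries of the first, which allows up to 3 counts per library, or 0.0891, 0.0628 and 0.0506 CPM. No fold of Eif2s3x over Eif2s3y is given, since the copy is at 0 or near it in both.

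None of the 5 eIF2B subunits was above the reference and 3 were below it. Of protein-coding genes tested 43.7% were below, and of all genes that averaged 1 TPM or more 29% were. Eif2b2, the beta subunit, was the highest with 8.35, 9.65 and 9.94 TPM. Of that TPM, 52.1 ± 7.30% in the second quantification and 39.6 ± 14.0% in the first lay on Eif2b2-206, a short transcript with a retained intron. On protein-coding transcripts only, its log2 difference was -0.25, below the -0.12 of Eif2b5. Eif2b3, the gamma subunit of the catalytic part, was the lowest with 1.62, 1.21 and 1.50 TPM, and its log2 difference was -2.11 ± 0.13 (limma adjusted p = 7.8e-05). Eif2b5, the epsilon subunit that holds the catalytic domain, averaged 5.59 ± 0.605 TPM and was called neither way. Eif2b1 and Eif2b4, which belong to the regulatory part, averaged 2.30 ± 0.336 and 1.77 ± 0.125 TPM and were below the reference. Counting protein-coding transcripts only, the subunits, which the complex is known to hold in equal number, ran from a log2 difference of -0.12 for Eif2b5 to -2.06 for Eif2b3. Eif2a and Eif2d, which can bring initiator tRNA without eIF2, averaged 9.20 ± 1.60 and 3.44 ± 0.517 TPM, and neither was called.

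The eIF3 complex, which bridges the small subunit and eIF4F, had 12 of 14 members above the reference and 1 below. In the second quantification, Eif3d, Eif3g, Eif3i and Eif3l, at log2 differences of 0.70 to 0.85, were not called, Eif3j2 was no longer below at -0.65, and Eif3j1 was below at -1.70. Eif3h was the highest, with 61.2, 42.1 and 38.2 TPM, and its log2 difference was 2.80 ± 0.22 (limma adjusted p = 9.0e-05). Relative to the reference, Eif3h stood at 3.03, 2.77 and 2.60 on the log2 scale in replicates 1, 2 and 3. The other 11 called subunits ran from Eif3g at 15.7 ± 1.72 TPM to Eif3a, the largest scaffold subunit, at 44.7 ± 3.36 TPM. Eif3b and Eif3c, which with Eif3a make the core, averaged 30.4 ± 1.68 and 30.1 ± 3.42 TPM. Among the rest, Eif3k averaged 43.3 ± 10.1 TPM, Eif3e 29.8 ± 8.15 TPM, Eif3f 27.4 ± 7.09 TPM and Eif3m 20.99 ± 5.42 TPM. Eif3d, which can bind the cap itself, averaged 17.6 ± 2.07 TPM, and Eif3l and Eif3i averaged 16.1 ± 3.22 and 16.0 ± 3.51 TPM. From the highest to the lowest of its 14 members eIF3 spanned 16.3-fold.

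The loosely bound j subunit is encoded by a pair of near-identical genes, and their split depended on the quantification. Eif3j1 (chromosome 2, 122028546 to 122056598 of mm10) had 4.10, 3.97 and 4.50 TPM, and Eif3j2 (chromosome 18, 43475418 to 43477796) had 3.68, 2.41 and 2.58 TPM. On the log2 scale, Eif3j1 over Eif3j2 was -1.05 ± 0.23 in the second quantification and 0.54 ± 0.34 in the first, where Eif3j1 was the higher in every library, so the order was turned round. The coding sequences were 99.2% identical and the transcripts shared an unbroken stretch of 1107 bases, so the level of each gene alone is uncertain.

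Within eIF4F and its helpers, 10 of 12 members were above the reference and none was below. In the second quantification Eif4a3 and Eif4g3, at log2 differences of 0.98 and 0.76, were not called. Eif4a1, the RNA helicase that unwinds the leader of an mRNA, had 228, 167 and 182 TPM. Its log2 difference from the reference was 4.85 ± 0.08 (limma adjusted p = 3.2e-05). The helicase Eif4a2 (chromosome 16, 23107444 to 23114136) had 22.0, 20.5 and 21.5 TPM, so that Eif4a1 over Eif4a2 was 3.16 ± 0.19 on the log2 scale, or 8.92-fold. Eif4a3, the helicase of the exon junction complex, had 27.5, 20.2 and 21.7 TPM, and Eif4a1 over Eif4a3 was 3.05 ± 0.01, and 3.83 on protein-coding transcripts only. The range of Eif4a2 lay inside that of Eif4a3, while every value of Eif4a1 was above both. A processed pseudogene, Eif4a-ps4, is 99.9% identical to Eif4a1 over 1218 bases, and 1.49% of the counts of the pair went to it.

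The scaffold and cap-binding proteins followed. Eif4g2, a scaffold that lacks the binding site for eIF4E, had 114, 94.5 and 97.6 TPM, and Eif4g1, the main scaffold, had 42.2, 39.3 and 41.3 TPM. Eif4g2 over Eif4g1 was 1.31 ± 0.10 on the log2 scale. Eif4g3, the other scaffold of eIF4F, had 17.0, 14.8 and 15.0 TPM, and Eif4g1 over Eif4g3 was 1.39 ± 0.07. The 3 scaffolds kept this order in every library. Eif4e, the cap-binding protein, had 27.5, 21.3 and 25.6 TPM, and Eif4e2, a relative that binds the cap without recruiting the scaffold, had 23.5, 20.5 and 19.8 TPM. Eif4e over Eif4e2 was 0.22 ± 0.16 on the log2 scale, and the ranges of the pair overlapped. Eif4e3 had 5.48, 4.68 and 4.59 TPM and was called neither way. Eif4e1b, known from germ cells, had 5.37, 6.46 and 37.7 estimated counts in the second quantification, or 0.12, 0.05 and 0.16 TPM, and was at 0 counts in all 3 libraries of the first. The helicase helpers Eif4b and Eif4h had 45.8, 33.3 and 30.1 TPM and 37.9, 32.2 and 33.5 TPM. Eif4b over Eif4h was 0.05 ± 0.21, and its sign differed between libraries.

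The 4E-binding proteins, which compete with the scaffold for eIF4E, were below eIF4E itself in every library. Eif4ebp2 had 12.3, 9.23 and 8.50 TPM, Eif4ebp1 had 6.45, 3.79 and 4.11 TPM and Eif4ebp3 had 1.84, 2.63 and 1.84 TPM. Eif4ebp1 over Eif4ebp2 was -1.07 ± 0.17 and Eif4ebp2 over Eif4ebp3 was 2.20 ± 0.45 on the log2 scale. The order Eif4ebp2, Eif4ebp1, Eif4ebp3 held in every library. Eif4ebp3, which shares its reads with an overlapping gene, was the only one of the 4 members of this role below the reference, and Eif4enif1, a transporter of eIF4E, averaged 3.97 ± 0.492 TPM.

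The role of subunit joining and eIF6 had 2 members. Eif6, which keeps the large ribosomal subunit apart from the small one, had 20.7, 18.7 and 20.4 TPM and was above the reference. Eif5b, which joins the subunits, had 10.1, 9.94 and 10.1 TPM and was called neither way.

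The elongation factor eEF1A held the highest level of all members. Its gene Eef1a1 (chromosome 9, 78478449 to 78489151) had 1690.5, 1353 and 1276 TPM, ranking 13, 14 and 14 among protein-coding genes in replicates 1, 2 and 3. Its log2 difference from the reference was 7.75 ± 0.08 (limma adjusted p = 3.2e-05). Its paralog Eef1a2, known from neurons and muscle, had 6, 1 and 4 counts, or 0.05, 0.01 and 0.02 TPM, and fell below the test's minimum. Of the subunits of its exchange factor, Eef1b2 had 119, 87.7 and 83.2 TPM, Eef1g averaged 62.9 ± 5.19 TPM and Eef1d averaged 24.8 ± 3.75 TPM, and all 3 were above the reference. Eef1e1, which is part of the complex of tRNA synthetases despite its symbol, had 1.90, 1.82 and 2.14 TPM and was below it (log2 difference -1.69 ± 0.21).

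Eef2, which moves the ribosome by a codon, had 274, 209 and 195 TPM. Eef2 over Eef1a1 was -2.68 ± 0.05 on the log2 scale, in the same direction in 3 of 3 libraries. Eif5a, which helps the ribosome through difficult peptide bonds and carries the amino acid hypusine, had 99.9, 81.3 and 90.4 TPM, and its paralog Eif5a2 had 1.21, 1.02 and 1.07 TPM. Eif5a over Eif5a2 was 6.24 ± 0.05 on the log2 scale, or 75.4-fold. That was the widest of the 14 gaps between paired members that both averaged 0.1 TPM or more. None of the 6 enzymes that act on elongation factors was above the reference. Eef2k, the kinase that inhibits eEF2, had 5.28, 4.96 and 5.06 TPM and was called neither way, as was the methyltransferase Eef1akmt1. The methyltransferases Eef1akmt2, Eef2kmt and Eef1akmt4 averaged 2.76 ± 0.327, 1.82 ± 0.119 and 1.66 ± 0.353 TPM and were below the reference, Eef2kmt with Alg1 overlapping its end, and Eef1akmt3 had 1, 0 and 5 counts.

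Of the 16 pairs examined, 15 had the same sign in 3 of 3 libraries. The exact sign-flip permutation test of a single pair (two-sided) cannot go below p = 0.25 with 3 libraries, so it cannot reach 0.05, and the pairs are given as descriptions. The SD of a log2 ratio over the libraries ran from 0.01 for Eif4a1 over Eif4a3 to 0.45 for Eif4ebp2 over Eif4ebp3.

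**Figure D2:**
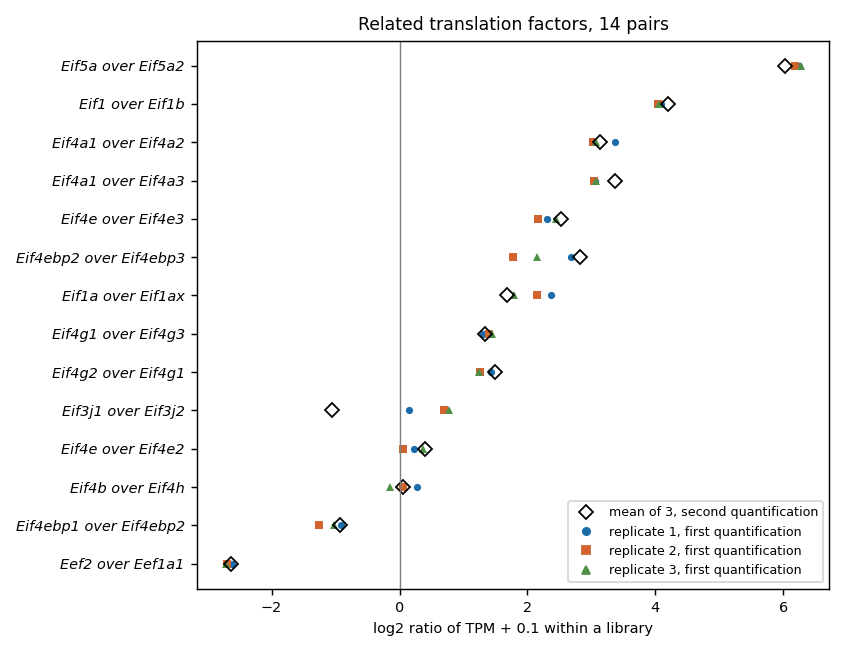
Log2 ratio of TPM + 0.1 between related members within each library, for the 14 pairs in which both members averaged 0.1 TPM or more. Diamonds give the mean of the second quantification and coloured symbols the 3 libraries in the first. Eif5a over Eif5a2 lies near 6, Eif4b over Eif4h straddles 0, and Eif3j1 over Eif3j2 is -1.05 in the second quantification and 0.54 in the first.

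The genes outside the family nearest to Eef1a1 in log2(TPM + 0.1) over the 3 libraries were B2m, Lgals3, Ccl4, Actb and Spp1, with mean absolute differences of 0.17 to 0.33. B2m encodes the light chain of MHC class I, Ccl4 a chemokine and Actb a cytoskeletal actin. Nearest to Eif4a1 were Zfp36, Cox4i1, Serpinb6a, Pmp22 and Pabpc1, with differences of 0.03 to 0.07. Zfp36 encodes an RNA-binding protein that destabilises cytokine mRNAs, and Pabpc1 the poly(A)-binding protein that contacts the eIF4G scaffold. Levels alone were compared here.

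Of 38 genes that act on these factors and lie outside the rule, 17 were above the reference, 4 below (Eif2ak3, Eif2ak4, Dhx29 and Eefsec), 16 neither and 1 (Ddx3y, at 0) not tested. Of all genes tested, 20.5% were above and 50.6% below, and of protein-coding genes tested 23.4% and 43.7%. Ppp1r15a, which targets a phosphatase to eIF2 alpha, had 234, 148 and 141 TPM, above every eIF2 and eIF2B subunit in each library. Pabpc1 had 229, 190 and 180 TPM. Tpt1, reported to bind elongation factors, had 1242, 919 and 864 TPM. Of the eIF2 kinases, Eif2ak2, which senses double-stranded RNA, averaged 13.5 TPM and was above the reference at a log2 difference of 1.02. Eif2ak3 and Eif2ak4 averaged 1.33 and 1.70 TPM. Both kinases that phosphorylate eIF4E, Mknk1 and Mknk2, were above the reference at 19.3 and 21.9 TPM. Pdcd4, an inhibitor of the eIF4A helicase, had 4.32, 2.99 and 2.61 TPM and was called neither way. Mtor averaged 3.37 TPM and was called neither way. Pdcd4 and Mtor stood at log2 differences of -0.99 and -0.94, so they and Eif2ak2 lay close to the limit of the call.

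No member was called as varying between libraries. After TMM scaling of the counts, 0 of 60 members varied more than the trend for their abundance (edgeR goodness-of-fit test, Benjamini-Hochberg adjusted), where 2.31% of all 12339 genes tested did so. That share is small, so a count of 0 does not set the members apart. At an unadjusted p under 0.05 the count was also 0 of 60 members, against 723 of all genes, and with DESeq2 size factors it was 0 members as well. The median SD of log2 CPM was 0.118 over the members, against 0.120 over all genes tested and 0.0818 over the 3141 genes at or above the members' median abundance. The members' value includes those below that abundance, so it is not matched to the 0.0818. The SD of a member ran from 0.0058 for Eif4g2 to 0.413 for Eif4ebp3. By role, the median SD was 0.0548 for eIF4F and its helpers and 0.152 for eIF3.

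**Figure D3:**
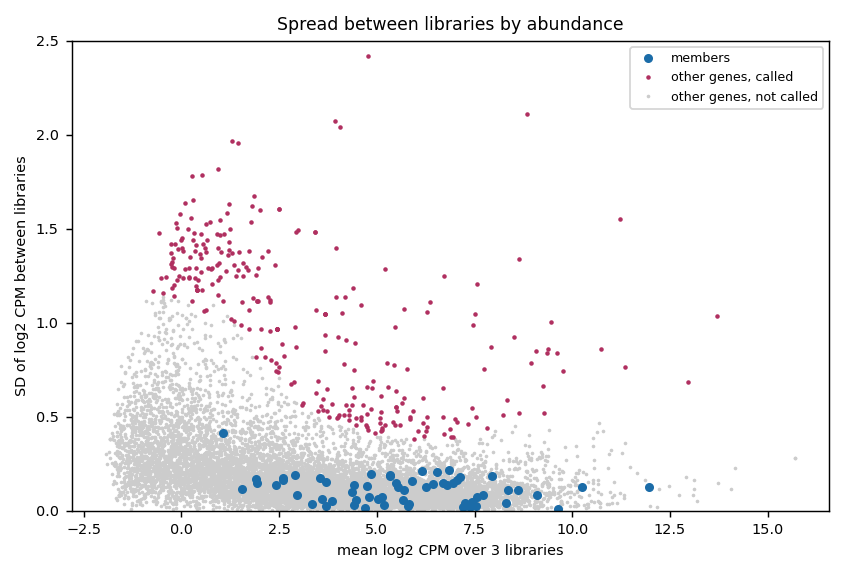
SD of log2 CPM between the 3 libraries against mean log2 CPM for each gene tested; members are blue, other genes that vary more than the trend are red, and other genes are grey (1 other gene lies above the axis). Every member lies within the grey band, and the highest SD among them is the 0.413 of Eif4ebp3.

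Members differed in which library held their highest level relative to the reference. Many mRNAs of the translation machinery are known in human cells to begin with a terminal oligopyrimidine (TOP) tract, through which mTOR and LARP1 control their translation. Of the 9 members on the list of such mRNAs, 8 passed the test's minimum, and 7 of these 8 had their highest level relative to the reference in replicate 1, as did 19 of the other 52 members. Their level in replicate 1 exceeded the mean of the others by a median of 0.20 on the log2 scale, against -0.02 for the other 52 members. Eif3e, at 2.39, 2.05 and 1.98 log2 units above the reference, showed the widest gap of the 8, and Eef1g, at 3.20, 3.26 and 3.27, was the exception. Among the 14 eIF3 members, which include Eif3e, Eif3f and Eif3h, 9 were highest in replicate 1, with a median of 0.23. Outside the list, the value was 0.34 for Eif3m and 0.29 for Eif3k, but -0.38 for Eif3b. The share of all genes that were highest in replicate 1 is not given here, so the pattern cannot be called particular to TOP mRNAs. These libraries are replicates with no order, and what sets replicate 1 apart was not tested.

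The transcripts of 7 of these 8 members held a run of at least 8 C or T in their first 100 bases, read on the transcript strand of the most abundant protein-coding transcript, as did 25 of the 52 others (48.1%) and 28.7% of the 8742 protein-coding genes that averaged 1 TPM or more. The runs of 6 of them are shown in 30 bases of the GENCODE M21 transcript (mm10), 5′ to 3′, with the longest run in capitals. They are shown because a TOP tract is a run of C and T. Such a tract begins at the 5′ end of the mRNA, and of the 6 runs only that of Eif3f began at base 1. Eef1b2, whose run is not shown, had 13 such bases, and they also began at base 1.
Eif3f: CTCTTTCTCggcaagatggcttctccggcc
Eif3e: gaacaagcgCTCCTTTCCCCCggcaagatg
Eef2: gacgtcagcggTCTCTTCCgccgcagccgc
Eif3h: cctcacgCTTCTCTTTCTTCCTgtctggct
Eef1a1: gccttggacgTTCTTTTTCgcaacgggttt
Eef1g: ccacactgCTCTCTCCTTTCCTcctccctt
The run began at base 1 in Eif3f (chromosome 7, 108934417 to 108934446, plus strand). It began at base 10 in Eif3e (chromosome 15, 43282690 to 43282719, minus strand), at base 15 in Eef2 (chromosome 10, 81176634 to 81176663, plus strand) and at base 38 in Eif3h (chromosome 15, 51865464 to 51865493, minus strand). It began at base 52 in Eef1a1 (chromosome 9, 78481654 to 78481683, minus strand) and at base 87 in Eef1g (chromosome 19, 8967119 to 8967148, plus strand), where the search ended inside a longer run. An annotated start need not be the start used in these cells, and a match is a description of the letters only. Eef1d was the exception, with a longest run of 6. Outside the list, Eif2s3x had a run of 16, Eif3c of 14, and Eif3a, Eif3d, Eif3i and Eif3m of 11 each.

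A gene's TPM sums its transcripts, and for several members much of it lay on transcripts not annotated as protein-coding. Of 49 members with both kinds of transcript that averaged 1 TPM or more, 12 had at least 10% of their TPM on the other kind in every library, or 24.5%, close to the 25.7% of the 7255 protein-coding genes of the same description. The members' median share was 3.44%, against 4.26% for those genes. The transcripts listed as targets of nonsense-mediated decay (NMD), which carry an early stop codon, were prominent in Eif4a2 and Eef1b2, and in the first quantification also in Eif2a. No annotated snoRNA gene lay inside an exon of the 140 transcripts examined, although 8 members hold snoRNA genes within their span.

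**Figure D4:**
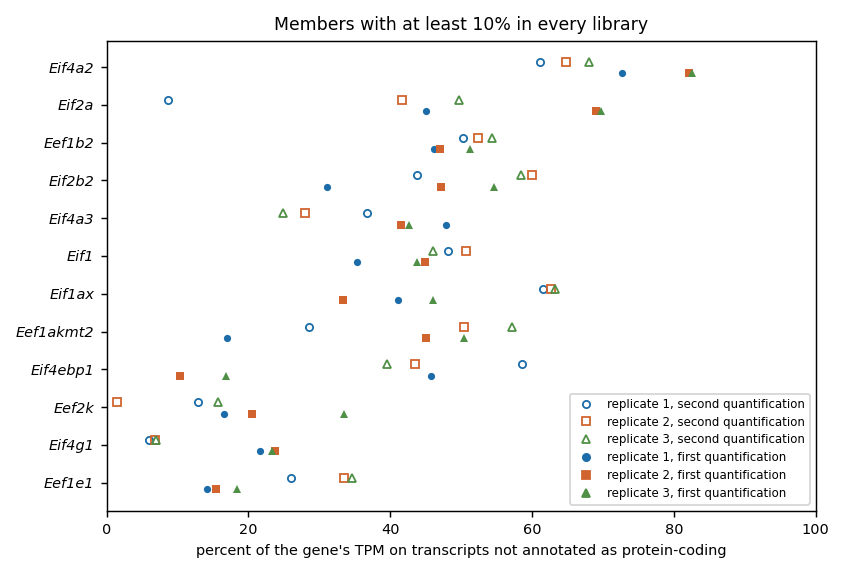
Percent of each gene's TPM on transcripts not annotated as protein-coding, for the 12 members with at least 10% in every library of the first quantification; open symbols give the second quantification and filled symbols the first, with 1 symbol per library. Eif4a2 lies at 61.1 to 68.0% in the second and 72.6 to 82.5% in the first, while Eif2a and Eif4ebp1 spread widely between libraries.

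In Eif4a2 this share was 61.1, 64.8 and 68.0% in replicates 1, 2 and 3 of the second quantification and 72.6, 82.2 and 82.5% in the first. The NMD transcript Eif4a2-210 held 33.6 ± 0.972% of the gene's TPM in the second and 42.6 ± 2.69% in the first, and the NMD transcript Eif4a2-204 held 18.02 ± 1.89% in the second and 23.0 ± 0.967% in the first (SD, n = 3). Counting protein-coding transcripts only, for every gene, put Eif4a2 at a log2 difference of -0.47 from the reference, against 1.69 over all transcripts. Eif4a1 over Eif4a2 was then 5.37, against 3.16 over all transcripts. Eif4a2 was the 1 called member whose direction turned round in this way. Eif2a and Eif2b2, called neither way over all transcripts, were also below 0 on protein-coding transcripts only, at -0.81 and -0.25, and were still called neither way. Eif4a2-204 gains an exon of 107 bases (chromosome 16, 23112351 to 23112457, plus strand), present in 32.1 ± 2.85% of the TPM of transcripts that span it in the second quantification and 35.2 ± 1.99% in the first. Eif4a2-210 lacks an exon of 140 bases (chromosome 16, 23109120 to 23109259), present in 59.2 ± 2.80% in the second and 47.7 ± 2.85% in the first, and its length is no multiple of a codon. The bases that end the annotated reading frame of each are shown because they carry the early stop codon, in capitals; in Eif4a2-204 the last 10 bases lie in the added exon.
Eif4a2-204: cgtgaaaactatattcacaggagtcgaTAG
Eif4a2-210: ttgcattggaggaacaaatgttcgaaaTGA
The stop of Eif4a2-204 ends at position 23112360 and that of Eif4a2-210 at position 23110067 of chromosome 16.

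In Eef1b2 (chromosome 1, 63176825 to 63180486) the share was 50.2, 52.3 and 54.4% in the second quantification and 46.2, 47.1 and 51.3% in the first. The NMD transcript Eef1b2-205 held 49.5 ± 3.73% in the second and 44.9 ± 3.86% in the first, and the protein-coding Eef1b2-209 held 37.2 ± 1.13% in the second and 39.0 ± 1.32% in the first. In both quantifications the NMD transcript was thus the most abundant of the gene. Counting protein-coding transcripts only, Eef1b2 stayed above the reference, at a log2 difference of 3.01. In Eif1 a short processed transcript, Eif1-202 of 383 bases, held 47.9 ± 2.58% in the second and 41.1 ± 5.30% in the first, and Eif1 was at 4.47 on protein-coding transcripts only. In Eif4a3 the processed transcript Eif4a3-203 held 28.1 ± 7.61% in the second and 43.7 ± 3.53% in the first.

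The shares of other members depended on the quantification or the library. In Eif2a the share was 8.63, 41.6 and 49.6% in the second and 45.1, 69.0 and 69.7% in the first, with replicate 1 the lowest in both. The NMD transcript Eif2a-207 held 12.04 ± 8.67% in the second and 39.5 ± 6.10% in the first. In Eif4g1 it was 6.60 ± 0.518% in the second and 22.8 ± 1.12% in the first. In Eif5b it was 54.2 ± 2.48% in the second and 6.76 ± 1.63% in the first. These shares are estimates from reads that overlapping transcripts have in common, so they carry more error than the levels of whole genes.

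Among protein-coding transcripts, 3 members had a second isoform with at least 20% of the gene's TPM in every library of both quantifications. In Eif4h (chromosome 5, 134619721 to 134639490, minus strand), the helper of the eIF4A helicase, Eif4h-201 held 53.5% in the second and 56.3 ± 2.81% in the first, and Eif4h-205 held 41.8 ± 2.85% in the second and 40.8 ± 3.45% in the first. Their coding sequences differ by exon 5 of Eif4h-205, a coding exon of 60 bases (chromosome 5, 134624441 to 134624500, minus strand) that keeps the reading frame. Transcripts with this exon made up 46.3, 42.1 and 43.0% of the TPM spanning it in replicates 1, 2 and 3 of the second quantification, and 45.5, 39.4 and 41.1% of the first. The exon is shown in capitals with 12 bases of each neighbouring exon, because it is the sequence by which the isoforms differ.
Eif4h-205: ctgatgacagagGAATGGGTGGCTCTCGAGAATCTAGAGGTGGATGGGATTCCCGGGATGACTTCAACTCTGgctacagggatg
In Eif5a, Eif5a-210 held 65.1% in the second and 62.3% in the first, and Eif5a-213 held 26.5% in the second and 29.7% in the first. Both encode the same protein, since their coding sequence of 462 bases is identical. In Eif4e, Eif4e-205 held 28.6% in the second quantification and 37.8% in the first, and Eif4e-202 held 34.5% in the second and 24.6% in the first, so their order was turned round between the quantifications.

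At the level of whole genes, 0 members differed between the quantifications by 1 or more on the log2 scale once a shift common to all genes was taken out. The log2 ratio of second over first TPM had medians of -1.02, -1.22 and -1.52 over all genes tested in replicates 1, 2 and 3, and ratios are given relative to these. Of 60 members, 0 were higher in the second by a log2 difference of at least 1 (limma, adjusted p under 0.05), where 2.72% of 9491 genes were, and 0 were lower, where 1.94% were. Both shares are small, so counts of 0 among 60 members do not set them apart. At an unadjusted p under 0.05 the limma test counted 44 of 60 members without the minimum difference, and 39 had an adjusted p under 0.05, so small differences repeated across libraries. The shares of all genes at these thresholds are not given here, so the counts do not set the members apart. The relative ratio ran from -0.61 ± 0.07 for Eif3j1 to 0.99 ± 0.20 for Eif3j2, and 22 members had a positive and 38 a negative value. The next widest were Eif1ax at 0.50 ± 0.14 and Eif4ebp3 at -0.47 ± 0.22.

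**Figure D5:**
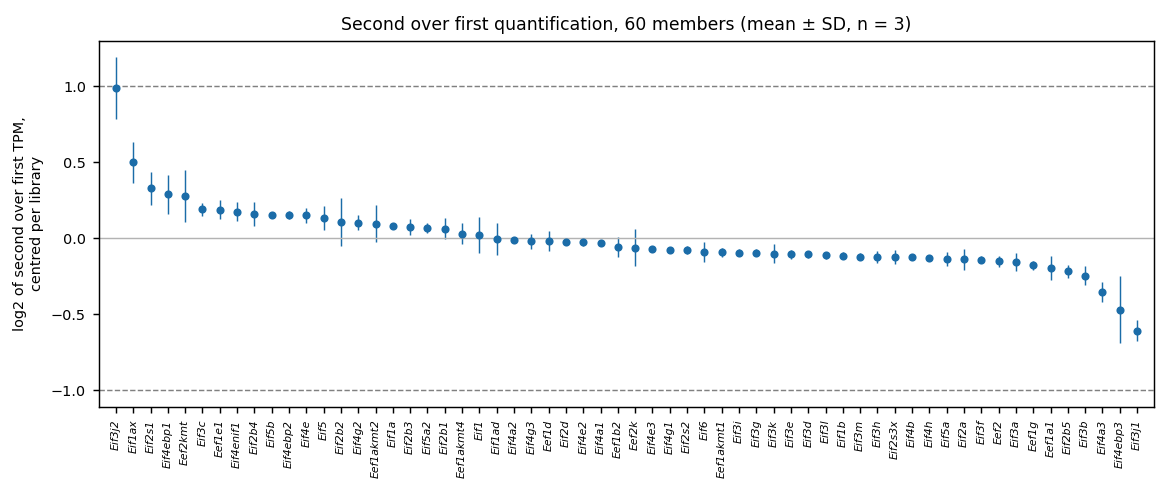
Log2 ratio of second over first TPM, relative to the median of all genes in each library, for the 60 members (mean ± SD over 3 libraries); dashed lines mark a difference of 1 either way. Eif3j2 at 0.99 and Eif3j1 at -0.61 are the ends of the range, and most members lie within 0.25 of 0.

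Reads that fit more than 1 gene make some levels uncertain. Of 60 members searched, 28 had at least 1 other gene matching 200 bases or more at 90% identity or higher, and 3 (Eif1, Eef1a1 and Eif1a) had at least 10. The 17 pseudogenes matching Eef1a1 together held 0.47% of the counts of Eef1a1 and its copies, and for the 18 matching Eif1 this share was 0.10%. The share was 1.49% for Eif4a1 and 2.36% for Eif2s3x, and for Eif2s3x the copies held 8.19% of the TPM in the second quantification. Genes that are not pseudogenes held more. AC115631.1, which spans Eif4ebp3 on the same strand, held 87.4% of the counts of the pair, Alg1 held 73.7% with Eef2kmt and Banf1 held 58.1% with Eif1ad. Alg1 and Banf1 overlap the ends of those genes on the opposite strand. The levels of Eif4ebp3, Eef2kmt and Eif1ad, all called below the reference, are therefore uncertain. Emd, which holds a stretch like Eif1, brought the share on all copies of Eif1 to 7.11%.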

How the data were processed

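Cytosolic RNA of 3 libraries of 1 group was measured. Per the text descriptions deposited with the files, the authors used mm10 and GENCODE M21. Per the file headers, the deposited gene and transcript tables from transcriptome alignments (the first quantification) hold expected counts, TPM, FPKM and bounds of a TPM interval, and the deposited transcript tables made straight from FASTQ files (the second) hold estimated counts and TPM. The sources used here give neither tool names nor the use of strand, so overlapping genes on opposite strands are uncertain. The authors' deposited TPM sum over everything quantified. The interval bounds were not used in any result.

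The members and lists were chosen with earlier results of these data known. Values of log2(TPM + 0.1) minus the library's reference were tested over all genes of at least 0.1 TPM (limma 3.58.1, R 4.3.3). Expected counts were rounded, and genes reaching 10 counts in each library were tested by the goodness-of-fit function of edgeR 4.0.16 with TMM factors, a prior count of 2 being used for log2 CPM. DESeq2 1.42.0 size factors were an alternative. Deposited FPKM values served as another alternative only. Transcripts were aligned with minimap2 2.31. The steps were tested on simulated data. Within each role the highest and lowest members, the paired members and members at 0 are given in every library, and the rest by mean ± SD. Every pair of libraries differed by more than counting error (chi-square per degree of freedom 42.0 to 149), so none was a copy. The labels number the libraries as biological replicates but give all 3 the same donor identifier, and nothing says that they came from separate animals, so p-values measure the spread between these libraries, which may be technical. Limits drawn from 0 counts cover counting error only, since reads counted with no molecular identifiers may repeat a molecule.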

Additional observations from a re-analysis of the deposited data

Results flagged for a closer look

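Of the 11 genes with a matching symbol that are not protein-coding, 1 had more than 3 counts in every library. The processed pseudogene Eif4a-ps4, a near copy of Eif4a1, averaged 4.09 TPM in the first quantification, with 2.88, 4.59 and 4.80 TPM in replicates 1, 2 and 3. It is outside the rule for members and was picked out because its signal exceeded the limit that a count of 0 allows. In the second quantification its TPM was 1.9e-06, 3.15 and 0.128, so the value depended on the library and on the method. How reads were split between Eif4a-ps4 and Eif4a1 was not tested.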

How the results depend on the processing

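No paired analysis was possible because the replicate numbers belong to 1 group. With the reference taken from genes of at least 5 TPM, 18 members were above it and 20 below, against 35 and 11. Of all genes tested, 10.6% were then above and 66.1% below, against 20.5% and 50.6%. Leaving out each replicate in turn gave 35 above every time and 10 to 11 below. Of all genes tested, 19.9 to 21% were then above and 49.4 to 51.1% below. Other pseudocounts, filters, FPKM, protein-coding transcripts and the second quantification gave 28 to 35 above and 9 to 15 below. At these settings 4.92 to 29.4% of all genes tested were above and 29 to 88.2% below. The 15 below came with no filter, where 64 members were tested and 88.2% of all genes were below. For the quantifications, 1 member was higher in the second with genes of at least 0.1 TPM tested, 0 to 1 with a replicate left out, and 55 were lower where the shift common to all genes was kept. That shift itself had medians of -1.02, -1.22 and -1.52 over all genes tested in replicates 1, 2 and 3. Shares of all genes called higher or lower at these settings are not given here, so the counts do not set the members apart. The count of members varying between libraries was 0 under every alternative, where 0.792 to 2.31% of genes were called. Among single values, Eif4a2 was at -0.47 on protein-coding transcripts only, Eif3j1 over Eif3j2 was -1.05 in the second quantification, and Eif4b over Eif4h ran from -0.054 without replicate 1 to 0.16 without replicate 3; the cause was not tested. Depth limits the members at or near 0 counts and the split between transcripts.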
